A study of Mus musculus with 4 samples.

Results

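Lipid-associated macrophage (LAM) genes are those that mark the macrophages which gather around dying adipocytes in obese fat and take up their lipid. The 9 genes examined here, Trem2, Tyrobp, Cd9, Cd63, Gpnmb, Spp1, Fabp5, Lgals3 and Atp6v0d2, were picked out by symbol from the 24421 genes of the expression matrices. All 9 were found and all 9 were among the 14106 genes expressed highly enough to be tested. RNA had been sequenced from epididymal adipose tissue, a visceral depot of wild-type (WT) male C57BL/6J mice, and 4 libraries were compared. Ctrl mice (2 libraries) went on high-fat diet (HFD) at 10 weeks of age and were kept on it for 14 weeks. The weight-cycling mice (WC1, 2 libraries) went on HFD at 8 weeks of age, ate it for 8 weeks, were switched to standard diet for 2 weeks so that they lost weight, and had HFD for another 6 weeks. All mice were therefore 24 weeks old with 14 weeks of HFD behind them. Each library is of whole tissue, so fewer macrophages, less RNA per macrophage and changes in the other cells of the tissue cannot be told apart.

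In obese adipose tissue, macrophages surround dead adipocytes in crown-like structures and digest the lipid that is released. TREM2 is a lipid-sensing receptor of these cells. It has almost no cytoplasmic tail and signals through TYROBP (DAP12), an adaptor with an immunoreceptor tyrosine-based activation motif that recruits the kinase SYK. The programme that follows includes tetraspanins (CD9, CD63), the lysosomal membrane protein GPNMB, a subunit of the lysosomal proton pump (ATP6V0D2), secreted proteins (osteopontin, encoded by Spp1, and galectin-3, encoded by Lgals3) and the fatty acid carrier FABP5.

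The promoters of these genes were read first. RefSeq start sites (GRCm38.p6) were matched for 6 of the 9 genes, and the 250 bases before each start were searched on both strands for the E-box core CACGTG and the M-box TCATGTG, which MiT/TFE factors bind, for the AP-1 site TGACTCA and for GAGGAA, a core of the sites of the myeloid factor PU.1. None of these motifs is contained in another. The first 3 were found in none of the 7 windows (Spp1 has 2 starts), whereas they were present in 6.02%, 3.25% and 4.46% of all 32851 promoter windows. GAGGAA or its reverse complement was found before Trem2, before the first start of Spp1 and before the start of Cd63, and in 23.3% of all windows. The RefSeq starts of Cd63 and Lgals3 lie 8356 and 6109 bases inside the genes as GENCODE M21 draws them, and the second start of Spp1 1074 bases inside, so these 3 windows are within the annotated genes. A match is only a run of letters, and its absence says nothing about the factor. The windows of 3 genes are shown because these genes stand for the receptor (Trem2, chr17:48346151-48346400, plus strand), the most abundant transcript of a lysosomal protein among the 9 (Gpnmb, chr6:49036268-49036517, plus strand) and the gene with the lowest log2 fold change of the 9 (Spp1, chr5:104434861-104435110, plus strand). Capitals mark GAGGAA or TTCCTC, whose first base lies 40 bases before the start of Trem2 and 113 bases before that of Spp1.
Trem2: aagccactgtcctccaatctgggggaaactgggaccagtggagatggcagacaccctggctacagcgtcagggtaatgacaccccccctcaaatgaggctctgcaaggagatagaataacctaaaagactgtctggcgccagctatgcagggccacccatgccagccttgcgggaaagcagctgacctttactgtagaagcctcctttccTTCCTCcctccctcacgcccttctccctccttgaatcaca
Gpnmb: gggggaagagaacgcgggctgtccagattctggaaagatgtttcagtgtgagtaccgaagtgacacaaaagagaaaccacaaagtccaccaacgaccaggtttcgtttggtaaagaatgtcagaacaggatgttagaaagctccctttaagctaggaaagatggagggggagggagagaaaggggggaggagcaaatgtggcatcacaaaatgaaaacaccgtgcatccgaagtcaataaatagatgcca
Spp1: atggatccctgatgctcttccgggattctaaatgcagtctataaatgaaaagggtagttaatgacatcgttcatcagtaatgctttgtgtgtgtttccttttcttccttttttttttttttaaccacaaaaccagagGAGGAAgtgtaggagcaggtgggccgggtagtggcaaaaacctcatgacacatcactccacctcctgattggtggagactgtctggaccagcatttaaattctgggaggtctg

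Values are given as counts scaled to library size (CPM), the unit of the first matrix, and levels of different genes are compared only as TPM, which are also corrected for transcript length. Reads per library ranged from 61465029 to 90965297, and the lowest number of reads of any of the 9 genes, that of Spp1 in WC1 2, was 3363. Counting error was therefore small, and the spread between libraries sets the precision. The labels do not say whether the libraries of a group came from separate mice, so the p values measure the spread between these libraries, which may be technical. WC1 was compared with Ctrl by limma on log2(CPM + 1) over all tested genes, with Benjamini-Hochberg adjusted p values, and a gene was called where this p was under 0.05. Log2 fold changes are given as WC1 minus Ctrl, with the standard error (SE) of the model. With 2 libraries against 2, an exact permutation test of a single value cannot go below p = 0.333.

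Of the 9 genes, 3 fell in WC1 (Spp1, Cd63 and Cd9), 0 rose and 6 did not pass the threshold. The background for these counts is that 7.71% of all tested genes were called lower and 10.2% higher. Both WC1 libraries lay below both Ctrl libraries in 8 of the 9 genes, and 36.6% of all tested genes showed this arrangement. At an unadjusted p under 0.05, 6 of the 9 genes were lower and 0 higher, compared to 18.9% of all tested genes in either direction. EdgeR also called 3 lower and 0 higher, against 7.14% of all tested genes lower and 10.5% higher. DESeq2 called more genes throughout, 7 of the 9 lower and 0 higher, against 12.3% of all tested genes lower and 15.1% higher. The median log2 fold change was -0.90 over the 9 genes and -0.02 over all tested genes. Fabp5 was the exception to this direction. The number of calls depended on single libraries, among the 9 genes as among all genes. Without Ctrl 1 or without Ctrl 2, 0 of the 9 genes were called, when 0.0284% and 0.0425% of all tested genes were called lower, and the median of the 9 genes was -0.86 and -0.93. In these fits the 9 genes are assumed to vary in Ctrl as they do in WC1. Without WC1 1, 8 were called lower against 19.5% of all tested genes, and without WC1 2, 5 against 8.73%. The plot of CPM by library shows how far apart the WC1 libraries lay for most of these genes.

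**Figure D1:**
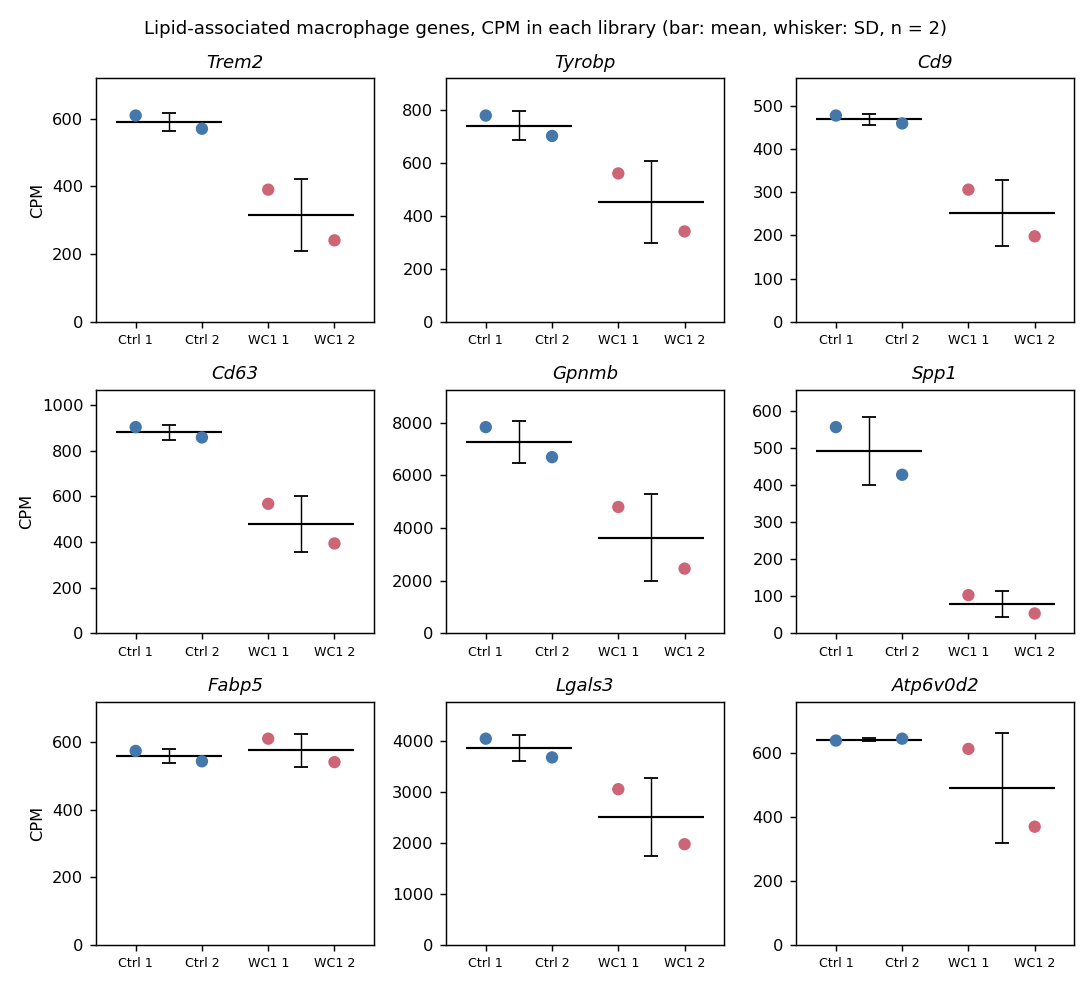
CPM of each of the 9 genes (vertical axes, from 0) in the 2 Ctrl libraries (blue) and the 2 WC1 libraries (red); horizontal bars are group means and whiskers the SD of 2 libraries. In 8 panels both WC1 points lie below both Ctrl points, with WC1 2 the lower, whereas the Fabp5 points of the groups overlap.

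Trem2 (chromosome 17, 48346401 to 48354147, plus strand) encodes the lipid-sensing receptor. It was measured at 609 and 570 CPM in Ctrl 1 and Ctrl 2 and at 390 and 240 CPM in WC1 1 and WC1 2. The groups did not overlap, and the WC1 libraries differed from each other more than the Ctrl libraries did. The means were 590 ± 28 and 315 ± 106 CPM (SD, n = 2 per group). This gave a log2 fold change of -0.94 ± 0.24 (SE), with a 95% confidence interval of -1.55 to -0.34 and a limma adjusted p of 0.054, just short of the threshold. Trem2 was under it in 4 of 13 alternative analyses, which included leaving out WC1 1 (adjusted p = 0.00046) or WC1 2 (adjusted p = 0.0081), and the values over all 13 ranged from 0.00039 (DESeq2) to 0.27 (limma without Ctrl 1).

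Tyrobp (chromosome 7, 30413760 to 30417585, plus strand) encodes the adaptor through which TREM2 signals. The Ctrl libraries had 778 and 701 CPM, the WC1 libraries 560 and 341 CPM. The groups did not overlap and the lowest value was again that of WC1 2. With -0.76 ± 0.25 on the log2 scale the difference did not pass (limma adjusted p = 0.093), and it was called in 4 of 13 alternatives, with adjusted p from 0.00092 to 0.37 over all 13. The 4 included DESeq2 (adjusted p = 0.0086), limma without WC1 1 (-1.11, adjusted p = 0.00092) and limma without WC1 2 (-0.40, adjusted p = 0.039). Receptor and adaptor were also set against each other in TPM. Trem2 stood at 0.402 and 0.417 of the Tyrobp level in Ctrl and at 0.358 and 0.362 in WC1, so the ratio was lower in both WC1 libraries (exact permutation p = 0.333, the smallest possible).

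Cd63 (chromosome 10, 128900989 to 128912822, plus strand) encodes a tetraspanin of late endosomes and lysosomes. It fell from 903 and 858 CPM in Ctrl to 567 and 393 CPM in WC1, a difference of 45.5% between the means. On the log2 scale this was -0.90 ± 0.19, with a 95% interval of -1.39 to -0.41 (limma adjusted p = 0.039). Cd9 (chromosome 6, 125460266 to 125494791, minus strand) encodes a tetraspanin of the cell surface and of extracellular vesicles. It fell from 478 and 460 CPM in Ctrl to 306 and 198 CPM in WC1, or -0.93 ± 0.21 on the log2 scale (limma adjusted p = 0.045). The groups did not overlap in either gene. Cd9 shares bases with an annotated antisense gene, whose reads could not be told apart here. In TPM, Cd9 stood at 0.400, 0.405, 0.408 and 0.380 of the Cd63 level in Ctrl 1, Ctrl 2, WC1 1 and WC1 2, and this ratio overlapped between groups. Without Ctrl 1 or Ctrl 2 neither call was kept, with limma adjusted p values of 0.24 and 0.19 for Cd63 and 0.25 and 0.19 for Cd9, while the log2 fold changes were -0.86 and -0.93 for Cd63 and -0.90 and -0.95 for Cd9. Both were also lost in the TPM matrix (0.054 and 0.061) and without a filter on low values (0.070 and 0.078), and each was kept in 9 of 13 alternatives, with limma or DESeq2 adjusted p values from 2.6e-05 to 0.24 for Cd63 and from 0.00014 to 0.25 for Cd9.

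Gpnmb (chromosome 6, 49036546 to 49070929, plus strand) encodes a glycoprotein of lysosomal and phagosomal membranes. It was the gene with the most reads of the 9 and took 0.748% and 0.640% of all reads in Ctrl, compared to 0.475% and 0.251% in WC1. Levels of 7833 and 6692 CPM in Ctrl stood against 4798 and 2456 CPM in WC1, without overlap. The group means differed by a factor of 2.00, and the log2 fold change was -1.08 ± 0.38, but it did not pass (limma adjusted p = 0.11). It was called in 2 of 13 alternatives, DESeq2 (adjusted p = 0.0022) and limma without WC1 1 (0.0016), with values up to 0.49 over all 13. The WC1 libraries differed by 0.97 on the log2 scale, nearly as much as the groups.

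Atp6v0d2 (chromosome 4, 19876841 to 19922605, minus strand) encodes a d subunit of the V0 part of the proton pump that is made by macrophages and osteoclasts. The Ctrl libraries stood at 638 and 644 CPM, WC1 1 at 612 CPM and WC1 2 at 369 CPM. WC1 1 was thus close to Ctrl, and the difference lay mostly in WC1 2. The log2 fold change was -0.43 ± 0.25 (limma adjusted p = 0.26), and it was -0.07 without WC1 2 and -0.80 without WC1 1, the only 1 of 13 alternatives in which it was called (limma adjusted p = 0.0012, with values up to 0.60 over all 13). In TPM the groups overlapped, with 487 and 497 in Ctrl and 510 and 317 in WC1. Its ubiquitous counterpart Atp6v0d1 stood at -0.21 ± 0.08 on the log2 scale (limma adjusted p = 0.13). In TPM, Atp6v0d2 was at 1.90 and 2.00 times the level of Atp6v0d1 in Ctrl and at 2.05 and 1.36 times in WC1.

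Spp1 (chromosome 5, 104435118 to 104441050, plus strand) encodes osteopontin, a secreted matricellular protein and cytokine that binds integrins and CD44. Ctrl 1 and Ctrl 2 had 557 and 428 CPM, compared to 103 CPM in WC1 1 and 53.4 CPM in WC1 2. Both WC1 libraries were far below both Ctrl libraries. The means were 493 ± 91 and 78.2 ± 35 CPM (SD, n = 2 per group), 84.1% lower in WC1. The difference of -2.70 ± 0.33 on the log2 scale had a 95% interval of -3.54 to -1.86 (limma adjusted p = 0.016), and only 0.106% of the tested genes had a lower one. The call was kept in 11 of 13 alternatives and was lost without Ctrl 1 (limma adjusted p = 0.14, log2 fold change -2.51) and without Ctrl 2 (0.095 and -2.89). Over all 13 the adjusted p ranged from 1.14e-18 (DESeq2) to 0.14 (limma without Ctrl 1), and the log2 fold change lay between -3.17 and -2.23.

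Spp1 had the lowest log2 fold change of the 9, and its 95% interval overlapped with that of Gpnmb (-2.06 to -0.09) but not with those of the other 7 genes. Spp1 stood at 0.707 and 0.581 of the Trem2 level in TPM in Ctrl and at 0.204 and 0.172 in WC1. Its ratio to Gpnmb was 0.189 and 0.170 in Ctrl and 0.0571 and 0.0579 in WC1, so that the WC1 libraries, which differed in Gpnmb and in Spp1, hardly differed in their ratio. Neither ratio overlapped between groups (exact permutation p = 0.333 for each, the smallest possible). Spp1 made up 4.10% and 3.49% of the summed TPM of the 9 genes in Ctrl and 1.09% and 0.884% in WC1.

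Lgals3 (chromosome 14, 47367751 to 47386160, plus strand) encodes galectin-3, a lectin that binds β-galactosides and gathers at damaged lysosomes. Both Ctrl libraries, with 4043 and 3675 CPM, were above WC1 1 with 3052 and WC1 2 with 1973 CPM. The log2 fold change was -0.65 ± 0.27 (limma adjusted p = 0.15), with an interval of -1.34 to 0.04. It was -0.34 without WC1 2, and it was called in 2 of 13 alternatives, DESeq2 (adjusted p = 0.014) and limma without WC1 1 (0.0035), with values up to 0.56 over all 13.

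Fabp5 (chromosome 3, 10012548 to 10016607, plus strand) encodes a fatty acid-binding protein that carries fatty acids within macrophages and is also made by adipocytes and capillary endothelium. Ctrl 1 and Ctrl 2 had 575 and 544 CPM, and WC1 1 and WC1 2 had 611 and 542 CPM, so the groups overlapped. The log2 fold change was 0.04 ± 0.10 (limma adjusted p = 0.80), with a 95% interval from -0.23 to 0.31. In TPM, in which the median of all genes moved up by 0.12, Fabp5 was at 1154 and 1103 in Ctrl and at 1337 and 1224 in WC1, higher without overlap but not called (limma adjusted p = 0.24). Fabp5 therefore took a larger part of the summed TPM of the 9 genes in WC1, 9.67% and 13.4% compared to 6.33% and 6.63% in Ctrl. Its ratio to Trem2 in TPM was 1.09 and 1.11 in Ctrl and 1.81 and 2.61 in WC1. RefSeq lists pseudogenes of Cd9, Cd63 and Fabp5, so the levels of these 3 genes are uncertain to the extent that reads were shared with such copies, whose handling the sources used here do not give.

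**Figure D2:**
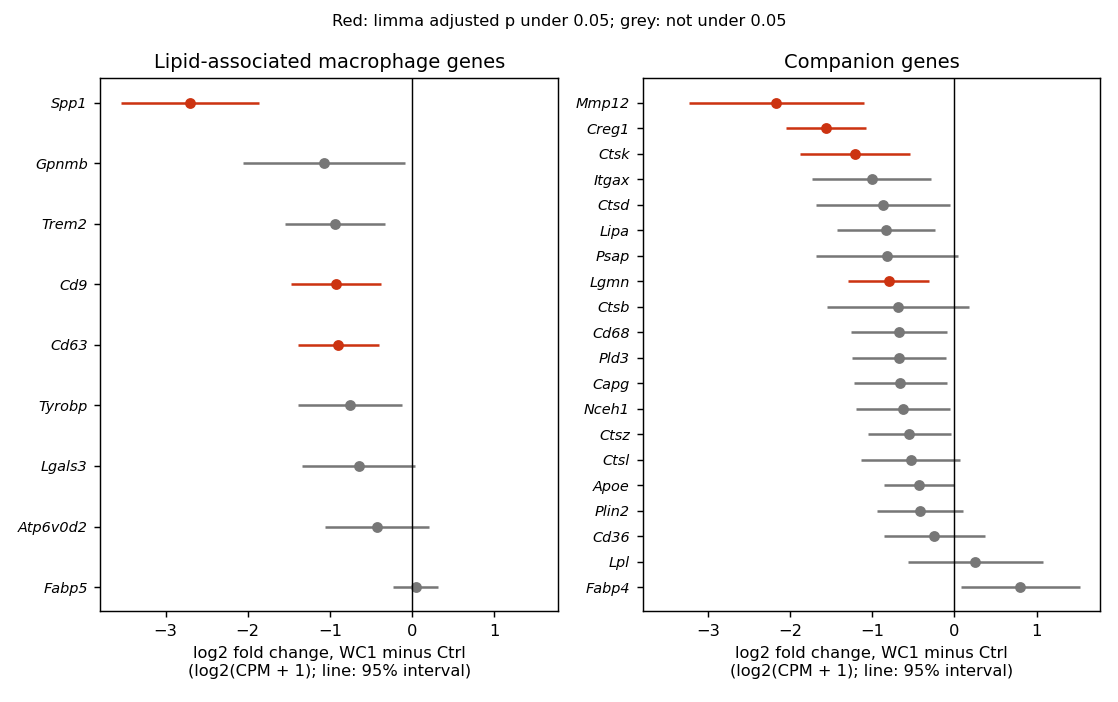
Log2 fold change (horizontal axis, WC1 minus Ctrl on log2(CPM + 1)) of the 9 genes on the left and of 20 companion genes on the right; lines are 95% confidence intervals, red marks a limma adjusted p under 0.05 and grey the rest. Spp1 has the lowest value on the left at -2.70 and Mmp12 on the right at -2.17, whereas Fabp5 (0.04) on the left and Lpl (0.26) and Fabp4 (0.80) on the right are the values above 0.

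The order of the 9 levels was compared in TPM. In Ctrl it ran from Lgals3 (mean 5300) through Gpnmb (3671), Tyrobp (2509), Cd63 (1879), Fabp5 (1128), Trem2 (1027), Cd9 (756) and Spp1 (663) to Atp6v0d2 (492). Across the Ctrl libraries the values of Cd9 and Spp1 overlapped, and those of the other neighbours did not. Within each Ctrl library the order of the 9 genes was the same. In WC1 it ran from Lgals3 (3793) through Gpnmb (2012), Tyrobp (1678), Fabp5 (1281), Cd63 (1127), Trem2 (603), Cd9 (446) and Atp6v0d2 (414) to Spp1 (116). Across the WC1 libraries the values of Gpnmb and Tyrobp, Tyrobp and Fabp5, Fabp5 and Cd63, Trem2 and Cd9, and Cd9 and Atp6v0d2 overlapped. Within each WC1 library, however, the order of the 9 genes was the same. Spp1 came last in WC1, with 150 and 80.6 TPM, and did not overlap with Atp6v0d2, at 510 and 317 TPM.

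The WC1 libraries were then compared with each other. All 9 genes were lower in WC1 2 than in WC1 1, with a median difference of -0.70 on the log2 scale, from -0.17 for Fabp5 to -0.97 for Gpnmb. Over all tested genes the median of this difference was -0.02 and its SD was 0.319. The Ctrl libraries were closer, with differences between -0.38 (Spp1) and 0.01 (Atp6v0d2) on the log2 scale. Summed, the 9 genes held 1.57% and 1.39% of the reads in Ctrl and 1.09% and 0.672% in WC1. WC1 2 therefore weighs on the size of every fold change. Without it the log2 fold changes were -0.59 for Trem2, -0.61 for Cd9, -0.63 for Cd63 and -0.59 for Gpnmb, and without WC1 1 they were -1.29, -1.24, -1.16 and -1.56. The plot of fold changes with each library left out shows the same shift for all 9 genes.

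**Figure D3:**
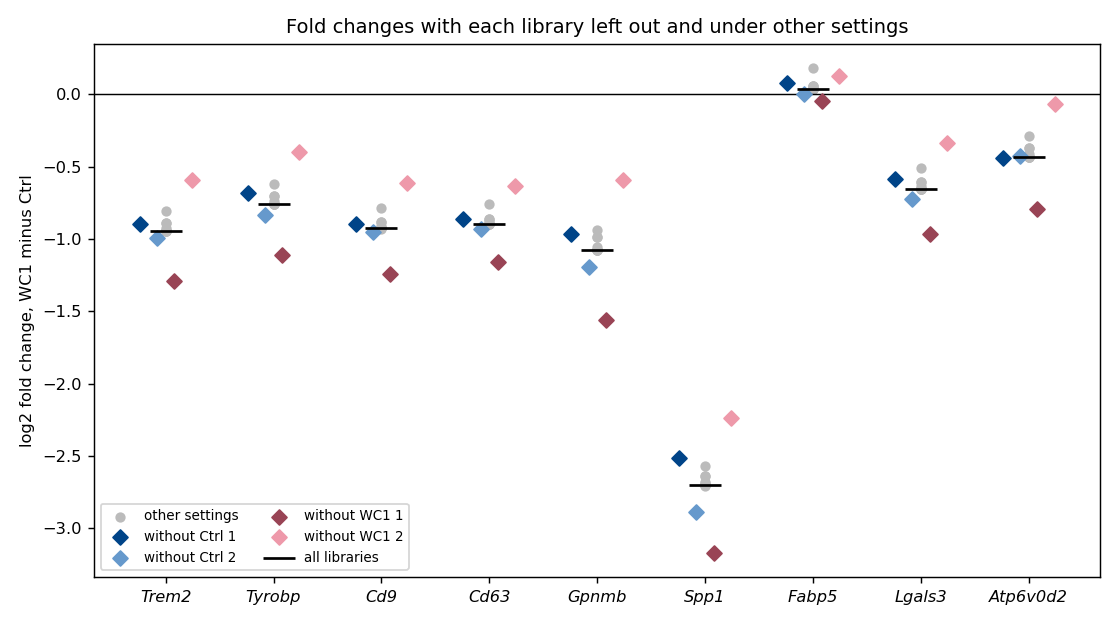
Log2 fold change (vertical axis) of each of the 9 genes with all libraries (black bar), with 1 library left out (diamonds) and under the other settings (grey points). Values without WC1 2 (light red) are the closest to 0 for the 8 genes that were lower and values without WC1 1 (dark red) the farthest from it, and Spp1 stays between -3.17 and -2.23.

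Macrophage markers moved in the same direction as the LAM genes. Of 10 general macrophage markers, all detected in every library, 5 were called lower (Lyz2, Mertk, Itgam, C1qa and C1qc) and 0 higher by limma (8 and 0 at an unadjusted p under 0.05), and 9 lay lower without overlap. Over all tested genes, 7.71% were called lower, 10.2% were called higher and 36.6% lay lower without overlap, and the counts of the shorter lists are too small to set against these shares. The 10 macrophage markers had a median log2 fold change of -0.64 and summed to 11265 and 10172 CPM in Ctrl and to 6474 and 4667 CPM in WC1. Lyz2 weighed most on this sum, with 6190 and 5352 CPM in Ctrl and 2875 and 2048 CPM in WC1. It also had the lowest log2 fold change of the 10 (-1.25). Adipocyte markers moved the other way. Of 5 markers, 4 were called higher, and they summed to 4189 and 5125 CPM in Ctrl and to 8544 and 11599 CPM in WC1. All 5 endothelial markers were called higher, with sums of 342 and 390 CPM in Ctrl and 797 and 1038 CPM in WC1. Of 5 fibroblast and progenitor markers, 3 were called lower, with sums of 2093 and 2128 CPM in Ctrl and 1493 and 1332 CPM in WC1. Most of these sums was Dcn, with 1646 and 1676 CPM in Ctrl and 1147 and 1046 CPM in WC1. Of the other lists, 3 of 6 resident macrophage markers were called lower and 0 higher, 2 of 4 smooth muscle markers, 1 of 4 B cell markers, 1 of 4 tested osteoclast markers and the 1 tested neutrophil marker higher and 0 lower, 1 of 4 monocyte markers and 1 of 5 dendritic cell markers each way, and 0 of 5 T and NK cell and 0 of 6 mesothelial markers in either direction (limma, and for these last lists also 0 unadjusted and with edgeR or DESeq2). Of the resident macrophage markers, 2 were higher at an unadjusted p under 0.05 and 1 was called higher by DESeq2, and 1 osteoclast marker was lower unadjusted and by DESeq2. Of the B cell markers, 2 were higher unadjusted and 3 by DESeq2, and of the smooth muscle markers 3 were higher unadjusted and by DESeq2. The tested neutrophil marker was S100a8, with means of 5.82 CPM in Ctrl and 15.5 CPM in WC1. S100a9 (0.507 and 0.129 CPM), Mpo (0.183 and 0.0569) and Retnlg (0.143 and 0) were too scarce to be tested and had lower means in WC1. B cell markers summed to 4.31 and 2.59 CPM in Ctrl, 7.24 CPM in WC1 1 and 26.4 CPM in WC1 2. Mesothelial markers summed to 122 and 90.5 CPM in Ctrl, 60.7 CPM in WC1 1 and 163 CPM in WC1 2, and all 6 were higher in WC1 2 than in WC1 1, by a median of 1.3 on the log2 scale. The part of these shifts in the fold changes of the LAM genes was not tested. Of 4 epididymis markers 3 were at 0 in every library, and the other, Adam7, had 0 CPM in both Ctrl libraries, 3.02 CPM in WC1 1 and 0.0318 CPM in WC1 2.

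**Figure D4:**
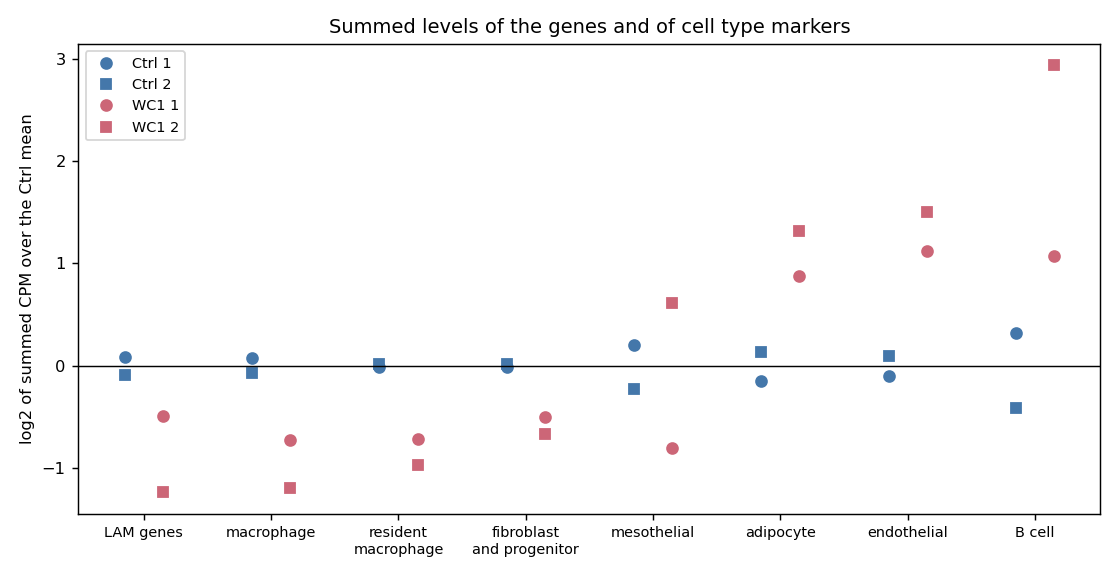
Log2 of the summed CPM of each list over its mean in Ctrl (vertical axis), for the 9 LAM genes and 7 lists of cell type markers, in each library. The LAM and macrophage sums are lower in both WC1 libraries and lowest in WC1 2, whereas the adipocyte and endothelial sums are higher in both and highest in WC1 2.

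Each LAM gene was therefore also set against the mean log2(CPM + 1) of the 10 macrophage markers, which was 8.58 and 8.46 in Ctrl and 8.05 and 7.64 in WC1. On this relative scale, the difference between WC1 and Ctrl was -2.03 for Spp1, and the groups stayed apart. Smaller negative differences without overlap were found for Gpnmb (-0.40), Trem2 (-0.27), Cd9 (-0.25) and Cd63 (-0.22). Tyrobp (-0.08) and Lgals3 (0.02) overlapped between groups. Atp6v0d2 (0.24) and Fabp5 (0.72) were higher relative to the markers in both WC1 libraries. With 2 libraries per group none of these differences can go below an exact permutation p of 0.333. The values also depended on the marker. Trem2, Cd9 and Cd63 were each lower relative to 8 of the 10 markers taken singly, Gpnmb relative to 9 and Spp1 relative to all 10. Tyrobp was lower relative to 6, Lgals3 relative to 5 and Atp6v0d2 relative to 3, whereas Fabp5 was higher relative to all 10.

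**Figure D5:**
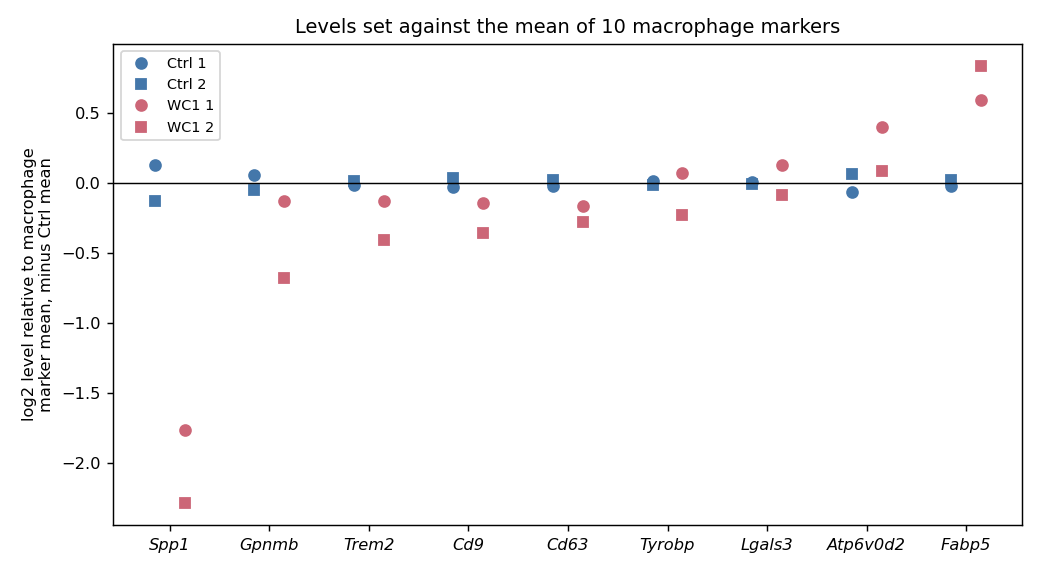
Log2 level of each LAM gene relative to the mean of 10 macrophage markers, after subtracting its Ctrl mean (vertical axis), in each library. Spp1 lies lowest in WC1 at a mean difference of -2.03, Tyrobp and Lgals3 lie on both sides of the Ctrl points, and Fabp5 lies highest at 0.72.

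Next, 20 further genes of the LAM programme were examined, some of which adipocytes and other cells also make. Of these companion genes, 4 were called lower, 0 were called higher and 16 did not pass, with a median log2 fold change of -0.67 (limma). At an unadjusted p under 0.05, 13 were lower and 1 higher, edgeR called 4 lower and 1 higher, and DESeq2 called 16 lower and 2 higher. Both WC1 libraries lay below both Ctrl libraries in 18 of them. The shares of all tested genes were 7.71% lower by limma, 18.9% lower unadjusted, 7.14% lower by edgeR, 12.3% lower by DESeq2 and 36.6% lower without overlap. The shares called higher were 10.2% by limma, 18.9% unadjusted, 10.5% by edgeR and 15.1% by DESeq2, for these counts and for those of the subgroups by role. The called genes were Mmp12, a macrophage elastase, at -2.17 ± 0.41 on the log2 scale (limma adjusted p = 0.032), Creg1, a lysosomal glycoprotein, with -1.56 ± 0.19 (0.017), Ctsk, the protease cathepsin K, with -1.21 ± 0.26 (0.040), and Lgmn, the protease legumain, with -0.80 ± 0.19 (0.049). The Mmp12 level was 6223 CPM in Ctrl 1 and 5523 CPM in Ctrl 2, compared to 1969 CPM in WC1 1 and 864 CPM in WC1 2. The 9 lysosomal companions were all lower without overlap, with 3 called and a median of -0.80. Lipa, which encodes lysosomal acid lipase (-0.83), was not among them and was counted under lipid uptake and storage. The 7 companions of lipid uptake and storage had a median of -0.42 and 0 limma calls (3 lower and 1 higher at an unadjusted p under 0.05), with 1 called higher by edgeR and 3 lower and 2 higher by DESeq2. Among them Fabp4 and Lpl, both abundant in adipocytes, stood higher without overlap, with log2 fold changes of 0.80 and 0.26 (limma adjusted p = 0.11 and 0.59). Apoe, a lipoprotein component and TREM2 ligand, had 3295 and 3288 CPM in the Ctrl libraries and 2489 and 2390 CPM in the WC1 libraries (-0.43 ± 0.17, limma adjusted p = 0.13). Fabp5 stood at 0.0720 and 0.0659 of the Fabp4 level in TPM in Ctrl and at 0.0475 and 0.0347 in WC1. Leaving out either Ctrl library took the companion calls to 0, leaving out WC1 1 to 17 and leaving out WC1 2 to 8, when at most 0.0425%, 19.5% and 8.73% of all tested genes were called lower.

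Genes of the TREM2 pathway outside the 9 were counted from a list of 13 signalling genes. Of these, 2 were called lower and 0 higher by limma (7 and 0 at an unadjusted p under 0.05), edgeR called 1 and 0, and DESeq2 6 and 0. Set against the shares of all tested genes called lower (7.71% by limma, 18.9% unadjusted, 7.14% by edgeR and 12.3% by DESeq2), the edgeR count was that of the background. All 13 had log2 fold changes below 0, with a median of -0.39. The called genes were Inpp5d, which encodes the inositol phosphatase SHIP1, with -0.65 ± 0.11 (limma adjusted p = 0.027), and Ptpn6, which encodes the tyrosine phosphatase SHP-1, with -0.49 ± 0.11 (0.045). Both products restrain signalling from such receptors. Syk, the kinase recruited by TYROBP, had 382 and 386 CPM in the Ctrl libraries and 410 and 292 CPM in the WC1 libraries, with overlap (-0.15 ± 0.17, limma adjusted p = 0.56). Hcst (DAP10), an adaptor beside TYROBP, was scarce, at 3.45 to 4.65 CPM in Ctrl and 2.03 to 3.13 CPM in WC1. Of 7 other receptors that couple to TYROBP, 5 were tested and 0 were called in either direction by limma, edgeR or DESeq2, or were under 0.05 unadjusted in limma. The most abundant of them, Cd300lb, stood at -0.54 ± 0.22 on the log2 scale (limma adjusted p = 0.14).

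Among 9 genes of osteopontin receptors, 1 was called lower, Itga4 (integrin α4), at -0.49 ± 0.11 on the log2 scale (limma adjusted p = 0.045). EdgeR also called 1 lower, DESeq2 called 2, and 4 were lower at an unadjusted p under 0.05, against 7.71% (limma), 7.14% (edgeR), 12.3% (DESeq2) and 18.9% (unadjusted) of all tested genes. In 7 of the 9 both WC1 libraries lay below both Ctrl libraries (36.6% of all tested genes), and all 9 log2 fold changes were below 0. Cd44 had 517 and 567 CPM in the Ctrl libraries and 438 and 301 CPM in the WC1 libraries (-0.58 ± 0.19, limma adjusted p = 0.099). Among the 8 other V0 subunits of the proton pump, 4 were called lower and 1 higher by limma, against 7.71% and 10.2% of all tested genes. The lower ones were Tcirg1 (-0.79), Atp6v0b (-0.67), Atp6v0c (-0.60) and Atp6v0e (-0.40), and the higher one was Atp6v0e2 (1.31), on the log2 scale with limma adjusted p values between 0.023 and 0.040. Of the 4 MiT/TFE factors, which drive lysosomal genes, 1 was called lower, Tfec, which fell from 17.6 and 18.1 CPM in Ctrl to 5.31 and 3.56 CPM in WC1 (-1.81 ± 0.18, limma adjusted p = 0.013). Mitf, Tfe3 and Tfeb had log2 fold changes of -0.58, -0.35 and -0.33 and did not pass in limma. All 4 factors were lower without overlap (36.6% of all tested genes) and at an unadjusted p under 0.05 (18.9%), edgeR called 1 lower and DESeq2 called 3 (12.3%).

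The edgeR quasi-likelihood test on reads recovered from the CPM matrix called the same 3 LAM genes lower, Spp1 (adjusted p = 0.020), Cd63 (0.040) and Cd9 (0.049), against 7.14% of all tested genes. The log2 fold changes in the TPM matrix, relative to its all-gene median, were -2.67 for Spp1, -1.04 for Gpnmb, -0.90 for Trem2, -0.89 for Cd9, -0.86 for Cd63, -0.72 for Tyrobp, -0.61 for Lgals3, -0.39 for Atp6v0d2 and 0.08 for Fabp5. Spp1 alone of the 9 was called in that matrix (limma adjusted p = 0.021). Of all 14106 tested genes, 583 (4.13%) were called lower there and 2054 higher.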

How the data were processed

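RNA-seq of epididymal adipose tissue was compared between 2 Ctrl and 2 WC1 libraries, grouped and numbered by the sample titles. Poly(A) RNA had been made into directional libraries. The submitters' processing notes name fastp, HISAT2, StringTie and mm10, without versions. The read counter, its strand setting and the annotation are not stated in the sources used here. The authors deposited 2 matrices of 24421 genes. The first holds a signal called CPM, reads divided by a library size that the authors rescaled, since its columns sum to between 97.6% and 105% of plain CPM. All values above 0 (100% in each library) were whole multiples of 1 read to within 0.01 read, so reads were recovered. The second holds TPM deposited by the authors, with equal sums.

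Genes of at least 0.5 CPM in at least 2 libraries were tested (14106). Values were log2(CPM + 1), which understates changes of low genes. The linear model of limma 3.58.1 (R 4.3.3, variance trend, two-sided) was used, adjusted by Benjamini-Hochberg over these genes. Alternatives were 2 other pseudocounts, 2 other filters, the TPM matrix, median-of-ratios scaling, edgeR 4.0.16 and DESeq2 1.42.0 on recovered reads, the replicate number as a block and each library left out. The scripts were tested on simulated data. Depth was 61465029 to 90965297 reads. The libraries of a group were not copies of each other, as the chi-square divided by its degrees of freedom was 33.9 for Ctrl and 83.7 for WC1. The 9 genes, the gene lists and the alternatives were chosen with earlier results of these data known, and list counts carry no test. All 9 genes were named, with up to 3 genes at either end of each list, preset counterparts of the 9 and the 5 genes of the most similar pattern. Other called list members and the marker genes named singly were chosen after their values were seen. Gene positions are from GENCODE M21 (mm10). Promoter sequences are from RefSeq GRCm38.p6. Of the 9 genes, Cd9 overlaps 2 annotated antisense or non-coding genes on the other strand and Spp1 overlaps 1 on its own strand, and reads of such pairs could not be separated here.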

Additional observations from a re-analysis of the deposited data

How the results depend on the processing

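The number of LAM genes called lower was 3 with all libraries and in 5 of the settings, namely both pseudocounts, edgeR, scaling by median of ratios and the filter on a mean of 5 CPM. Only 1 was called without a filter, 1 in the TPM matrix, 7 with DESeq2 and 5 with the replicate block. Of all tested genes, 2.93%, 4.13%, 12.3% and 10.6% were called lower in these settings, against 7.71% in the fit reported above. The number also changed when 1 library was omitted. The 2 genes gained with the block were Trem2 and Tyrobp (limma adjusted p = 0.023 and 0.036). The number called higher was 0 in every setting. Companion genes called lower numbered 4 with all libraries, 1 without a filter, 2 in the TPM matrix, 16 with DESeq2 and 8 with the replicate block, and from 0 to 17 when 1 library was omitted. Without a filter 18132 genes were tested, and in the TPM matrix the all-gene median was higher by 0.12 on the log2 scale. The share of all tested genes under 0.05 unadjusted is not given for either setting. In both, 5 of the 9 genes were under 0.05 unadjusted. In the fit reported above it was 6, when 18.9% of all tested genes were lower at that threshold. The cause of these changes was not tested. The median log2 fold change of the 9 genes lay between -1.16 and -0.59 when 1 library was omitted and from -0.90 to -0.76 otherwise. Of 117 values of single genes, 93 kept direction and call, 13 gained and 10 lost a call, and 1 changed sign, Fabp5, at -0.046 without WC1 1. Its other values were positive, 0.13 without WC1 2 and 0.18 in the TPM matrix, where it was highest. Leaving out a library leaves its group with 1 library, assumed to vary like the other group. Equal replicate numbers are not said to pair mice. Library differences in Ctrl and WC1 correlated with r = 0.19 over genes, and with 2 pairs this does not show that they are paired.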

Other observations

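The nearest relatives of some LAM genes were also read from the matrices. Over all tested genes 7.71% were called lower and 10.2% higher, and the lists of relatives are short. Among 6 other tetraspanins, 3 were called lower, the leukocyte tetraspanins Cd53 and Cd37, with log2 fold changes of -0.92 and -0.62, and the widely expressed Cd82, with -0.36, at limma adjusted p values between 0.035 and 0.040. Cd81, a close relative of Cd9, was not called (0.17 ± 0.12, limma adjusted p = 0.35). Among 6 other galectins, 2 were called higher. Lgals12, a galectin of adipocyte lipid droplets, rose from 47.6 and 52.5 CPM in Ctrl to 91.1 and 118 CPM in WC1 (1.04 ± 0.14, limma adjusted p = 0.019), and Lgals4, best known from the gut, rose from 14.3 and 15.5 to 21.3 and 21.2 CPM (0.49 ± 0.09, limma adjusted p = 0.029). Of 6 other fatty acid-binding protein genes, 4 were tested. Limma called 0 (1 lower and 1 higher at an unadjusted p under 0.05), edgeR called 1 higher, and DESeq2 called 1 lower and 1 higher.

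The genes closest in pattern to the LAM genes over the 4 libraries were sought among 9709 genes with a mean of at least 10 CPM, by the Euclidean distance between their centred log2(CPM + 1) and the median of the 9 genes. The 5 closest were Cd84 (distance 0.0633), Gpr137b-ps (0.0733), Lipa (0.0770), Qpct (0.0788) and Galnt6 (0.0802). Their log2 fold changes lay between -0.89 and -0.83, and none was called (limma adjusted p between 0.053 and 0.071). Lipa encodes lysosomal acid lipase and Cd84 a leukocyte receptor of the SLAM family. With 4 libraries such a likeness describes these samples only.

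Single markers of other myeloid cells were read as well, with log2 fold changes ± SE. Ccr2, a monocyte chemokine receptor, rose from 62.9 and 57.4 CPM in Ctrl to 80.7 and 89.1 CPM in WC1 (0.49 ± 0.09, limma adjusted p = 0.028). Of the other 3 monocyte markers Plac8 was called lower (-0.77 ± 0.17, limma adjusted p = 0.042), and Ly6c2 (-0.03 ± 0.15) and Chil3 (0.57 ± 0.27) were not called. The resident macrophage gene Folr2 fell from 273 and 271 to 136 and 98.0 CPM (-1.23 ± 0.16, limma adjusted p = 0.019), as did Mrc1 (-0.89 ± 0.13, 0.021) and Cbr2 (-0.55 ± 0.13, 0.048). The other 3 genes of that list did not pass and had positive log2 fold changes, Cd163 with 0.36 ± 0.12, Timd4 with 0.68 ± 0.24 and Lyve1 with 0.17 ± 0.24, the first 2 without overlap between groups. Acp5, an enzyme of osteoclasts and of some macrophages, rose from 219 and 207 to 316 and 329 CPM (0.60 ± 0.08, limma adjusted p = 0.018). Dcstamp, which osteoclasts and fusing macrophages need, had 33.3 and 34.3 CPM in the Ctrl libraries and 21.3 and 11.1 CPM in the WC1 libraries (-1.08 ± 0.29, limma adjusted p = 0.060).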
